A study of Mus musculus with 5 samples.

Results

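Promoter peaks of histone acetylation were examined at the nuclear genes of the mitochondrial respiratory chain in T_M cells, which are CD8+ T cells cultured toward a memory form. Members were taken by symbol as the protein-coding genes of GRCm38 that begin with Nduf, Sdh, Uqcr, Atp5, or Cox and a digit. The rule gave 107 gene models of 106 symbols among 21951 protein-coding genes, since Atp5o has 2 models. By their roles, 44 belong to complex I, 8 to complex II, 8 to complex III, 29 to complex IV and 18 to complex V, with assembly factors counted beside the subunits of their complex. Peak lists of 5 libraries were analysed here, 2 of WT cells and 3 of TPdh-/- cells, fewer than the study states per condition, and none of the peaks lies on the mitochondrial genome. WT cells are wildtype, and TPdh-/- cells come from mice with a floxed Pdha1 allele (B6.129P2-Pdha1tm1ptl/J) crossed to the CD4-Cre transgene (B6.Cg-Tg(Cd4-cre)1Cwi/BfluJ), so that Pdha1, which encodes a subunit of the pyruvate dehydrogenase complex, is deleted in the T cell lineage. Both groups were splenic T cells of adult mice, first activated with antigen and later kept in medium with IL-15. The study's methods describe OT-I cells, which carry a transgenic receptor for an ovalbumin peptide, in this culture, while the labels do not name that transgene. TPdh-/- T_M cells differentiated abnormally and kept effector functions in the study's reading. Genotype and differentiation state thus cannot be told apart in these libraries. Whether the WT mice carried the Cre transgene, and whether each library came from a separate mouse, is not stated in the labels. The antibody was directed to acetylated histones, and the sample labels name lysine 18.

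The respiratory chain sits in the inner mitochondrial membrane and makes most of the ATP of an aerobic cell. Complex I (NADH dehydrogenase) and complex II (succinate dehydrogenase, which is also an enzyme of the tricarboxylic acid cycle) pass electrons to ubiquinone, complex III passes them to cytochrome c, complex IV (cytochrome c oxidase) passes them to oxygen, and complex V (ATP synthase) uses the proton gradient to make ATP. Some subunits are encoded in mitochondrial DNA, but most are nuclear genes that are read in nearly every cell type, from promoters rich in CpG. Memory CD8+ T cells are known for their reliance on oxidative phosphorylation. Histone acetylation marks active promoters and needs acetyl-CoA, of which the pyruvate dehydrogenase complex is a source, which is why the mark was compared between WT and TPdh-/- cells.

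A promoter was the region within 3000 bp of any annotated transcription start site of a gene. RefSeq promoter windows of GRCm38.p6, each with 250 bases before and 50 after a start site, were found for 87 of the 106 symbols. The stretches below are the parts of such windows before the start site that hold no annotated exon. They show, for each complex, the member with the highest mean rank of its peaks among those with a promoter peak in all 5 libraries and at least 60 such bases, and then a ubiquitous and a tissue-restricted gene with no promoter peak in any library. Ndufa7 and Atp5j ranked higher in their complexes but had 9 and 0 such bases. Capitals mark matches on either strand to any of 7 short motifs, which were the ETS core bound by GABPA (CCGGAAG), the NRF1 core (GCGCATGC), YY1 (AAGATGGC), the SP1 box (GGGCGG), the cAMP response element (TGACGTCA), the ERR core (AAGGTCA) and the CCAAT box (CCAAT). Ndufa10 (chr1:92473861-92474008, minus strand), Sdhaf2 (chr19:10525328-10525403, minus), Uqcrfs1 (chr13:30545363-30545566, minus), Cox20 (chr1:178318903-178319129, plus) and Atp5l (chr9:44920752-44920992, minus) each lie inside the peak of WT replicate 1, while Atp5h (chr11:115419963-115420127, minus) and Cox6b2 (chr7:4753095-4753225, minus) lie in no peak.
Ndufa10: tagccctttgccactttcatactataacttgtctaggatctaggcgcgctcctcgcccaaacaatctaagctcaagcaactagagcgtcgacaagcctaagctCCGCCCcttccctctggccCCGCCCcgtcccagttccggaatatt
Sdhaf2: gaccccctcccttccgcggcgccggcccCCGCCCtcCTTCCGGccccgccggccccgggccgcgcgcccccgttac
Uqcrfs1: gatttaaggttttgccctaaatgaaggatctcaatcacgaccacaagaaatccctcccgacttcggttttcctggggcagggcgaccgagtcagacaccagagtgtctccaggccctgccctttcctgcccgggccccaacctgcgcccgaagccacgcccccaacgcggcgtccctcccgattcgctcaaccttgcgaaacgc
Cox20: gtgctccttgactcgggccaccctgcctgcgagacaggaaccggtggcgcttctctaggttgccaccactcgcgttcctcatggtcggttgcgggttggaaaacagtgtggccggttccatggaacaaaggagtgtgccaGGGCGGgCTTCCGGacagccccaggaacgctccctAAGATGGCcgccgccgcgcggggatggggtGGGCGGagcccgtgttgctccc
Atp5l: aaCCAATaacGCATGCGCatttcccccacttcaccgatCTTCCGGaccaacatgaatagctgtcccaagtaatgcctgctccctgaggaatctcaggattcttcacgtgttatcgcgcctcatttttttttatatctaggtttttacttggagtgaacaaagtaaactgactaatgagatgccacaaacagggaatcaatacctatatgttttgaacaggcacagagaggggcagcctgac
Atp5h: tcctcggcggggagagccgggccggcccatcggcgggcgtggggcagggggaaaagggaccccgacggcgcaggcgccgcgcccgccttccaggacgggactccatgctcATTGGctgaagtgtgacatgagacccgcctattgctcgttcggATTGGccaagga
Cox6b2: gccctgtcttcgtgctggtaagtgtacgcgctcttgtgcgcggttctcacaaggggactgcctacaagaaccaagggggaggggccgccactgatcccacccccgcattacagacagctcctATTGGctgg

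As a description, 27 of the 93 windows of these genes held the ETS core (29.0%), compared with 11.6% of all 21263 windows of 17492 protein-coding genes and 20.2% of the 9327 windows of genes with a promoter peak in WT replicate 1. YY1 was in 14.0% of the windows, compared with 3.05% of all windows and 4.92% of those with a peak. The NRF1 core was in 12.9%, beside 3.52% and 5.63%. The ERR core was in 8.60%, beside 4.08% and 3.11%, and the cAMP response element in 4.30%, beside 2.23% and 3.41%. The SP1 box was in 49.5%, beside 46.2% and 62.1%, and the CCAAT box in 41.9%, beside 38.2% and 37.3%. A gene can have several windows, and each motif was counted by itself. The ETS core was in 11 of the 23 genes with a peak in 4 or 5 libraries, 5 of 25 with a peak in 2 or 3, 6 of 26 with a peak in 1 and 4 of 13 with none. In the same classes the NRF1 core was in 2, 2, 5 and 3 genes, and YY1 in 4, 5, 2 and 2. For the SP1 box the counts were 14, 8, 15 and 7, and for the CCAAT box 11, 10, 9 and 7. Those of the cAMP response element were 2, 1, 1 and 0, and those of the ERR core 2, 2, 3 and 1. The median GC content was 59.0%, 59.0%, 59.0% and 58.7% in the same order. All coding genes were not split into these classes, so whether other promoters share these patterns was not tested. A match is a run of letters and not evidence that a factor binds there.

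The lists differ greatly in length. WT replicates 1 and 2 hold 15962 and 8859 peaks, and TPdh-/- replicates 1, 2 and 3 hold 4920, 5419 and 9418. Since read numbers are absent from the lists, sequencing depth is unknown. A gene without a peak is a gene whose signal was not called in that list, not one without acetylation. Of 12 T cell genes, between 6 and 12 had a promoter peak in each library, and Cd8b1 had one in all 5, while Cd8a had one in WT replicate 1 alone. Among genes of other cells, none of 2 NK cell genes had a promoter peak, and of 6 myeloid genes Spi1 alone had one, in every library. Promoter peaks at Cd4 and Foxp3 were called in both WT lists, one at Zbtb7b was called in WT replicate 1, and none of these 3 CD4 T cell genes had one in TPdh-/- lists. The part of other cells in the results here was not tested. Pdha1 itself had a promoter peak in WT replicate 1 alone, and a peak list does not measure its deletion.

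A promoter peak was called at 89 of the 107 members in WT replicate 1 and at 46 in WT replicate 2. In TPdh-/- replicates 1, 2 and 3 it was called at 25, 25 and 55 members. These counts are 83.2%, 43.0%, 23.4%, 23.4% and 51.4% of the members, beside 42.1%, 24.8%, 15.3%, 16.5% and 27.9% of all protein-coding genes in the same libraries. In each library the share of all members together was thus above that of all coding genes. TPdh-/- replicate 3 had more members with a peak than WT replicate 2, so the groups overlap. The mean share was 63.1% ± 28.4 over the WT libraries (SD, n = 2), compared with 32.7% ± 16.2 over those of TPdh-/- cells (SD, n = 3), a difference of 30.4 percentage points, and that of all coding genes was 33.4% ± 12.3 and 19.9% ± 6.95, a difference of 13.5 points. With 2 libraries against 3, an exact permutation test could not give a two-sided p below 0.2, and no test was made of these shares.

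List length moved with this difference. Without WT replicate 1, it was 10.3 points. When every list was cut to its 4920 strongest peaks, the length of the shortest, the members with a peak were 53 and 31 in WT and 25, 25 and 44 in TPdh-/- libraries, and the difference was 9.97 points (39.3% ± 14.5 compared with 29.3% ± 10.3), beside 1.91 points for all coding genes (18.5% ± 1.92 compared with 16.6% ± 1.84). WT replicate 1 and TPdh-/- replicate 3 remained the highest in lists of equal length, and TPdh-/- replicate 3 remained above WT replicate 2.

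**Figure D1:**
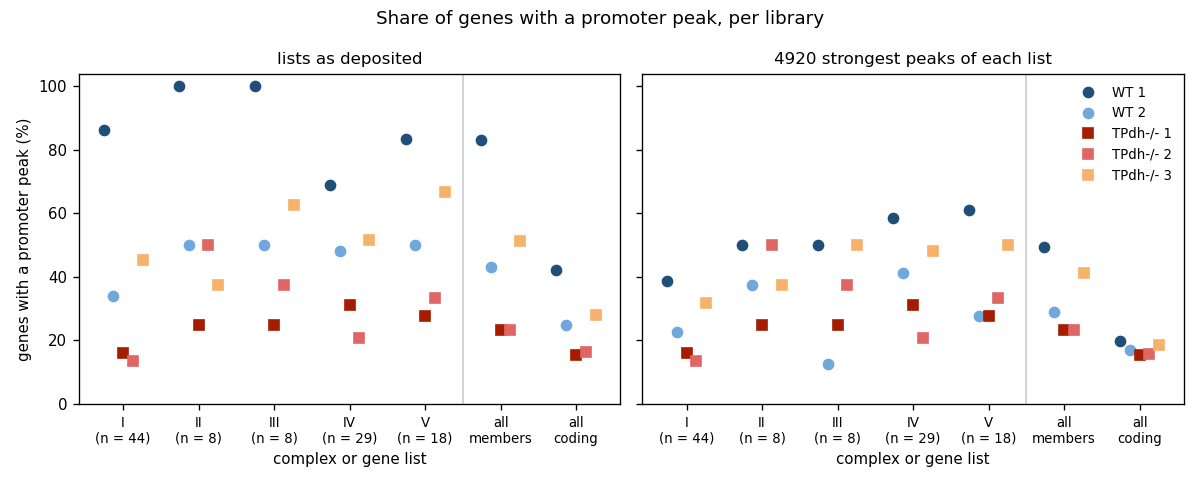
Share of genes with a promoter peak (vertical axis, %) by complex, for all members and for all protein-coding genes, with 1 point per library (circles WT, squares TPdh-/-), in the lists as deposited (left) and in the 4920 strongest peaks of each list (right). In the deposited lists WT replicate 1 is highest in each complex, and for all members the other WT library (43.0%) lies below TPdh-/- replicate 3 (51.4%); with lists of equal length the members span 23.4% to 49.5%.

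Every member with a promoter peak in any library had one in WT replicate 1, 89 in all. A peak in WT replicate 1 alone was found for 28 members (26.2%, beside 11.2% of all coding genes), in WT replicate 1 and TPdh-/- replicate 3 alone for 9 (8.41%, beside 3.96%), and in both WT lists and TPdh-/- replicate 3 alone for 14 (13.1%, beside 4.81%). A further 12 members (11.2%, beside 10.9%) had a promoter peak in all 5 libraries. Over genes with a promoter peak in at least 1 library, the shares were 13.5% of 89 members and 25.2% of 9493 coding genes for a peak in all 5, and 31.5% and 25.9% for a peak in WT replicate 1 alone. Those with a peak in both WT lists and in no TPdh-/- list were 3 (2.80%, beside 2.2%), Ndufs8, Sdha and Atp5o. Of genes with a promoter peak in at least 1 library, this pattern was lower among members, at 3.37%, beside 5.10% of coding genes. No member had a peak in a TPdh-/- list and in no WT list, compared with 0.756% of coding genes. No peak was called in any library at 18 members (16.8%), beside 56.8% of coding genes.

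**Figure D2:**
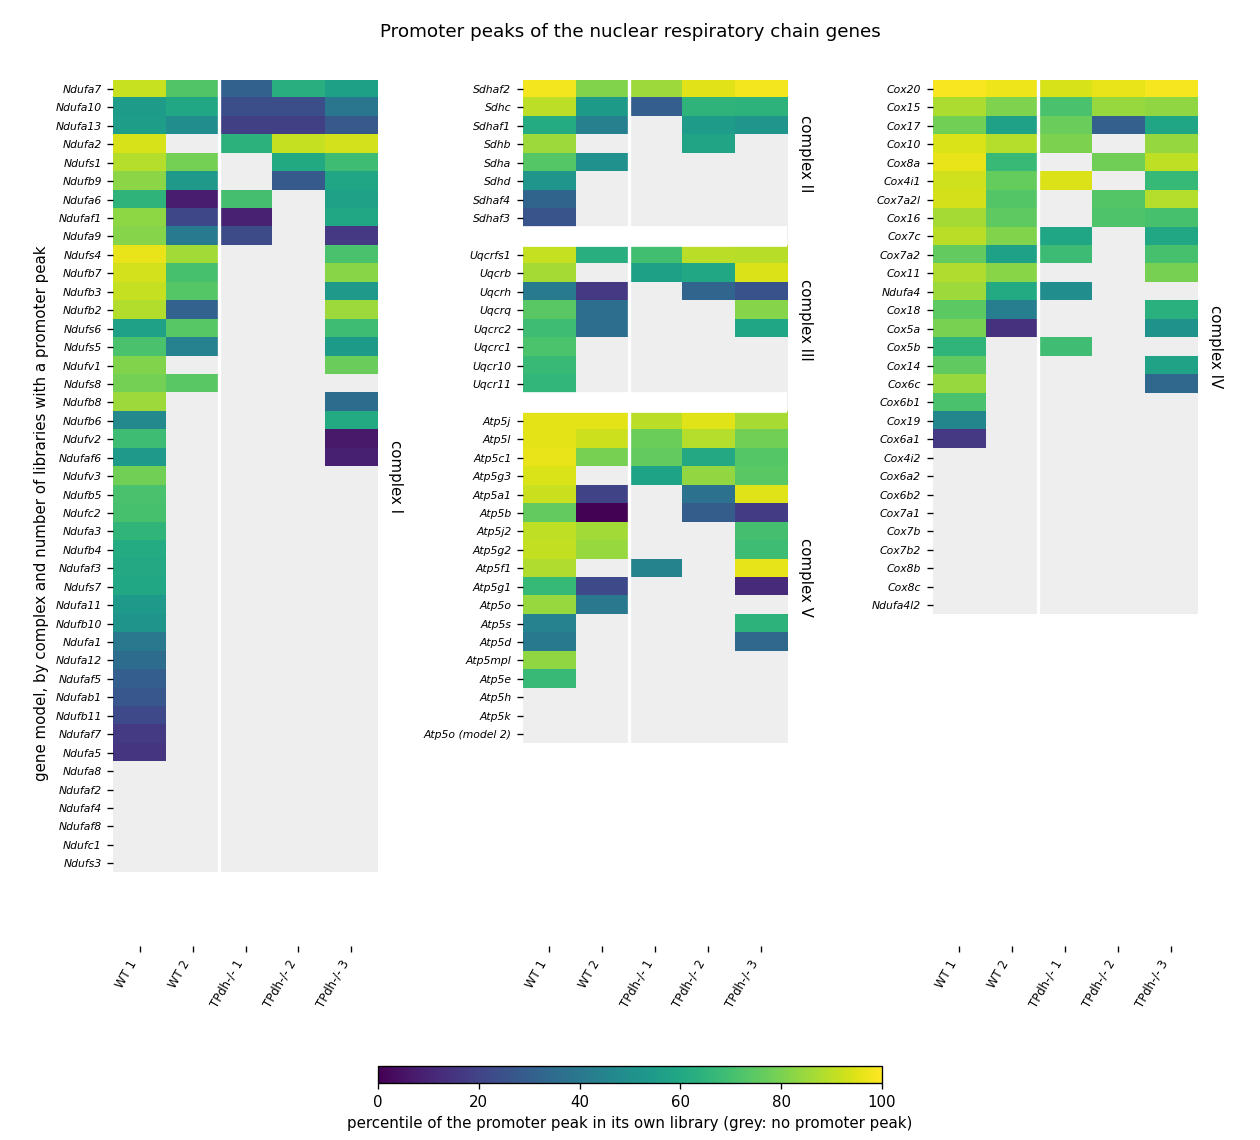
Percentile of each member's strongest promoter peak within its own library (colour, from 0 for the weakest peak of the list to 100 for the strongest, ranked by −log10 q), with gene models in rows grouped by complex (1 gene of complex I is not drawn) and the 5 libraries in columns, where grey means that no promoter peak was called. Cox20, Sdhaf2 and Atp5j are above the 80 percentile in every library, rows with colour in WT 1 alone are found in each complex, and 18 gene models are grey throughout.

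Peaks that were found in more libraries ranked higher in the longest list. Rank is given as a percentile, the share of peaks in the same list with a lower −log10 q. In WT replicate 1 the median percentile was 53.0 for the 28 members with a peak there alone, 74.6 for 14 members with a peak in 2 libraries, 86.7 for 16 with a peak in 3, 86.7 for 19 with a peak in 4 and 91.4 for the 12 with a peak in all 5. All coding genes gave 40.4, 54.9, 66.5, 76.4 and 88.9 in the same classes. These medians are a description, since the classes rest on the same calls as the percentiles.

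**Figure D3:**
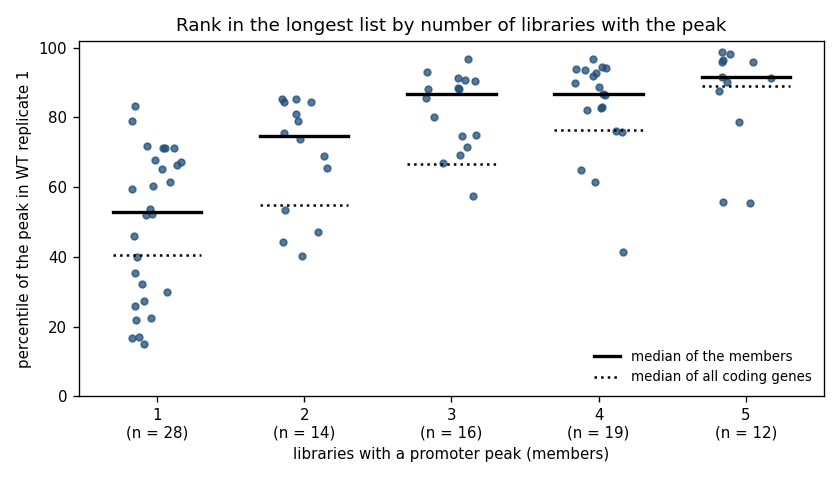
Percentile of the promoter peak in WT replicate 1 (vertical axis) by the number of libraries in which the member had a promoter peak (horizontal axis), with 1 point per member, the median of the members (solid line) and of all coding genes (dotted line). Members found in WT replicate 1 alone have a median of 53.0 and range from 15.0 to 83.3, and those found in all 5 libraries have a median of 91.4 and range from 55.4 to 98.9.

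The fold enrichment of the peaks, the authors' ratio over the background estimated by the peak caller, had a median above that of all coding promoters with a peak in each library. The median over members with a peak was 3.22 and 3.01 in WT and 3.10, 3.01 and 3.01 in TPdh-/- libraries, beside 2.79, 2.82, 2.85, 2.79 and 2.75 over all coding genes with a promoter peak. Of the members with a peak, 79.8%, 65.2%, 76.0%, 72.0% and 76.4% lay above that median in the same order. T cell genes had lower medians, of 1.93 and 2.11 in WT and 2.43, 2.43 and 2.04 in TPdh-/- libraries. The highest value of a member was 4.13, at Cox8a in WT replicate 1. Which members enter each median depends on the calls in that list, so the medians are not over the same genes. By −log10 q the median percentile was 75.6 and 62.2 in WT, and 68.4, 62.6 and 67.0 in TPdh-/- libraries. All coding genes with a promoter peak gave 66.9, 62.9, 60.8, 63.0 and 63.7 in the same order. By this rank the members lay slightly below coding genes in WT replicate 2 and TPdh-/- replicate 2. Between the means of the groups the members' difference was 2.88 percentile points, beside 2.39 for all coding genes. The sign turned without WT replicate 1 (−3.84), in lists of equal length (−1.99) and with a minimum −log10 q of 5 (−2.46).

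**Figure D4:**
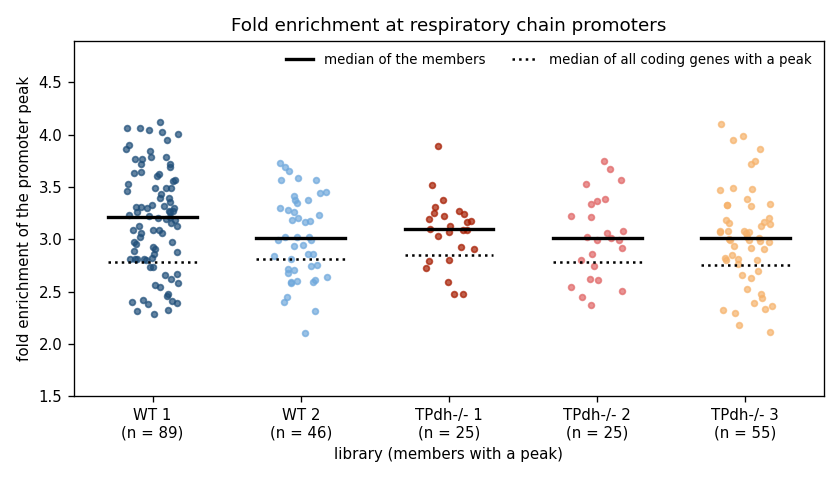
Fold enrichment over background (vertical axis, ratio) of the promoter peak of each member with one, per library (horizontal axis), with the median of the members (solid line) and of all coding genes with a promoter peak (dotted line). Members' medians lie between 3.01 and 3.22 and those of coding genes between 2.75 and 2.85.

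Peaks of the members were centred near their start sites, as were those of all coding genes. The median distance from the nearest start site of the gene to the peak midpoint was, in bp and with upstream as negative, −15.0 and −14.2 for WT libraries and 84.5, 7.50 and 1.50 for those of TPdh-/- cells. The same median over all coding genes was 12.5 and 4 bp for WT, and 5, 6.5 and 7.5 bp for TPdh-/- libraries. In WT replicate 1, 92.1% of 89 peaks covered a start site of the member, beside 79.9% for all coding genes, and in WT replicate 2 the values were 89.1% and 72.8%. In TPdh-/- replicates 1, 2 and 3 they were 76.0% and 71.1%, 76.0% and 73.8%, and 83.6% and 76.2%. The median width of these peaks was 1131 and 1013 bp for WT libraries, while those of TPdh-/- cells gave 618, 876 and 1033 bp. All coding genes gave 1186.5, 987, 844, 905 and 1025 bp in the same order. The nearest coding start was that of the member itself for 72 of 89 and 37 of 46 peaks in WT, and for 18 of 25, 15 of 25 and 42 of 55 peaks in TPdh-/- libraries. The other peaks lie closer to a neighbour, and such a peak cannot be assigned to one of both genes. A divergent coding gene starts within 1000 bp of 24 of the 107 members (22.4%, beside 6.79% of coding genes). In WT replicate 1 a peak was called at 20 of these 24 (83.3%) and at 69 of the other 83 (83.1%), whereas among all coding genes the shares were 81.4% with and 39.2% without such a partner.

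Complex I, the largest and the entry point for electrons from NADH, had a promoter peak at 38 and 15 of its 44 genes in WT, and at 7, 6 and 20 in TPdh-/- libraries. These are 86.4% and 34.1%, and 15.9%, 13.6% and 45.5%, so that in TPdh-/- replicates 1 and 2 complex I was near the shares of all coding genes (15.3% and 16.5%). In lists of equal length the counts were 17 and 10 in WT, and 7, 6 and 14. Among the 7 core subunits, WT libraries had 6 and 2 peaks (Ndufs1 and Ndufs8 in the second), and those of TPdh-/- cells had 0, 1 and 3. The 29 accessory subunits had 27, 12, 6, 5 and 15 peaks in the 5 libraries, and the 8 assembly factors had 5, 1, 1, 0 and 2.

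Ndufa7, an accessory subunit on chromosome 17, had the highest mean percentile of complex I among those with a peak in all 5 libraries (63.0). Its peak in WT replicate 1 runs over chr17:33823933-33825255 and covers the start site, and the gene Rps28 starts divergently nearby. Its fold enrichment was 4.07 and 3.38 in WT, and 2.80, 3.06 and 2.92 in TPdh-/- libraries. Both WT values are above all 3 TPdh-/- values. Ndufa10, an accessory subunit on chromosome 1, had fold enrichments of 2.39 and 2.59 in WT, and 2.48, 2.37 and 2.29 in TPdh-/- libraries, and its groups overlap. Its strongest peak covered the 5′ start site in WT replicate 1, whereas in the other 4 libraries it lay within the gene, over chr1:92468289-92469697 in WT replicate 2, with its midpoint 1869 bp downstream of the nearest start, so these values are not of the same region. Ndufa13, an accessory subunit on chromosome 8, had the lowest mean percentile of the 3 (34.2), with fold enrichments of 2.42 and 2.75 in WT, and 2.48, 2.50 and 2.37 in TPdh-/- libraries. Its groups overlap, and its peaks lie closest to the start of Tssk6.

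Ndufs8, an iron-sulfur core subunit on chromosome 19, was the member of complex I with a peak in both WT and in no TPdh-/- list. The peaks run over chr19:3912197-3913571 and chr19:3912254-3913387 and cover the start site. Fold enrichments were 3.19 and 3.38, at the 79.1 and 74.3 percentiles. In lists of equal length it kept this pattern. Ndufa8, Ndufc1, Ndufs3, Ndufaf2, Ndufaf4 and Ndufaf8 had no promoter peak in any library.

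Complex II, which oxidizes succinate, had a promoter peak at all 8 of its genes in WT replicate 1 and at 4 in WT replicate 2, and at 2, 4 and 3 in TPdh-/- libraries. Equal lists left 4 and 3 in WT, and 2, 4 and 3. Its 4 subunits differed in pattern. Sdha, the flavoprotein that holds the active site (chromosome 13), had a fold enrichment of 3.21 and 2.95 in WT, at the 73.7 and 50.5 percentiles, and no peak in a TPdh-/- list, also in lists of equal length. Both peaks cover its start site, over chr13:74349631-74350713 in WT replicate 1, and Ccdc127 starts divergently nearby. Sdhb, the iron-sulfur subunit, had a fold enrichment of 3.02 in WT replicate 1 and 2.80 in TPdh-/- replicate 2, and no peak in the other 3 lists. Sdhc, a membrane anchor, had peaks in all 5, with fold enrichments of 3.49 and 3.02 in WT, and 2.79, 3.08 and 2.94 in TPdh-/- libraries, and the groups overlap. Sdhd, the other anchor, had a peak in WT replicate 1 alone, at 2.93.

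Sdhaf2, the assembly factor that helps attach flavin to Sdha, was the strongest of complex II, with a mean percentile of 91.7. Its fold enrichment was 3.90 and 3.19 in WT, and 3.26, 3.56 and 3.72 in TPdh-/- libraries, and the groups overlap. In WT replicate 1 the peak (chr19:10524540-10525950) lies closer to the start of Cpsf7 than to that of Sdhaf2, as it does in all 3 TPdh-/- libraries. An ETS core and an SP1 box were found in the printed stretch of this promoter.

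Complex III, the cytochrome bc1 complex, had a promoter peak at all 8 of its genes taken by symbol in WT replicate 1. Of these genes, 4 had one in WT replicate 2, and 2, 3 and 5 in TPdh-/- libraries. In lists of equal length its direction turned, with 4 and 1 in WT, and 2, 3 and 4 in TPdh-/- libraries. Uqcrfs1, the Rieske iron-sulfur protein, was its only gene with a peak in all 5. Over chr13:30544552-30545813 in WT replicate 1, the peak covers the start site. Its fold enrichment was 3.39 and 3.00 in WT, and 3.25, 3.39 and 3.38 in TPdh-/- libraries, and the groups overlap. No match to the 7 motifs was found in its printed stretch. Uqcr10, Uqcr11 and Uqcrc1 had a peak in WT replicate 1 alone.

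Complex IV holds the terminal oxidase, its chaperones and its tissue-restricted isoforms. Of its 29 genes, 20 and 14 had a promoter peak in WT, and 9, 6 and 15 in TPdh-/- libraries, or 17 and 12, and 9, 6 and 14, in lists of equal length. The 8 isoforms known from other tissues had none in any library. These are Cox4i2 (lung), Cox6a2, Cox7a1 and Cox8b (heart and skeletal muscle), Cox6b2, Cox7b2 and Cox8c (testis) and Ndufa4l2 (induced by hypoxia). Among their ubiquitous counterparts, Cox4i1, Cox7a2 and Cox8a had peaks in 4 libraries, Ndufa4 in 3, and Cox6a1 and Cox6b1 in WT replicate 1 alone, while Cox7b had none. Without the 8 isoforms, the shares of the remaining 99 members were 89.9% and 46.5% in WT, and 25.3%, 25.3% and 55.6% in TPdh-/- libraries.

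Among the 10 assembly factors of complex IV, 10 and 8 had a peak in WT, and 4, 5 and 9 in TPdh-/- libraries. Cox20, which assists assembly of the subunit COX2, had the highest mean percentile of all members (97.1). Its percentiles were 98.9 and 97.3 in WT, and 94.1, 96.6 and 98.8 in TPdh-/- libraries, and its fold enrichments were 3.30 and 3.20, and 3.20, 3.37 and 3.49. The peak of WT replicate 1 runs over chr1:178317757-178319498, and its midpoint lies upstream of the start, at −502.5 bp. Cox15, which makes haem A, had fold enrichments of 3.40 and 3.16 in WT, and 3.04, 3.21 and 3.33 in TPdh-/- libraries. It stands near Cutc, whose start is the closest to the peak in the 3 TPdh-/- libraries. Cox17, a copper chaperone, was the lowest of the 3, with 2.88 and 2.59 in WT, and 3.16, 2.54 and 2.81 in TPdh-/- libraries. The groups of Cox15 and of Cox17 overlap.

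Complex V had a promoter peak at 15 and 9 of its 18 gene models in WT, and at 5, 6 and 12 in TPdh-/- libraries, or 11 and 5, and 5, 6 and 9, in lists of equal length. Its members had the highest median fold enrichment of the 5 complexes in both WT libraries (3.56 and 3.45) and in TPdh-/- replicates 1 and 2 (3.31 and 3.11). In TPdh-/- replicate 2 complex IV was close, at 3.10. Complex III was higher in TPdh-/- replicate 3, at 3.33, beside 3.11 for complex V. Atp5j, a stalk subunit on chromosome 16, had fold enrichments of 3.46 and 3.73 in WT, and 3.52, 3.53 and 3.08 in TPdh-/- libraries. Its peak, over chr16:84834435-84835651 in WT replicate 1, lies at the start sites of both Atp5j and Gabpa, and the latter, which encodes the factor that binds the ETS core, has the closest start in TPdh-/- replicates 1 and 3. Atp5l, a membrane subunit on chromosome 9, had 3.57 and 3.65 in WT, and 3.38, 3.67 and 3.02 in TPdh-/- libraries, and the groups of both genes overlap. The printed stretch of Atp5l holds an NRF1 core, an ETS core and a CCAAT box.

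Atp5c1, the gamma subunit of the central stalk, had fold enrichments of 3.95 and 3.45 in WT, and 3.31, 2.99 and 3.15 in TPdh-/- libraries. Both WT values are above the TPdh-/- values. The peak of WT replicate 1 runs over chr2:10079833-10081177, covers the start site and lies beside the divergent gene Kin. Atp5o, a stalk subunit, had peaks in both WT and in no TPdh-/- list, with fold enrichments of 3.56 and 2.81, at the 84.5 and 39.9 percentiles, over chr16:91931032-91932115 in WT replicate 1. In lists of equal length its peak in WT replicate 2 was lost. Of the subunits that form the catalytic head, Atp5a1 had peaks in both WT and in TPdh-/- replicates 2 and 3. Atp5b had a peak at its start site in WT replicate 1 alone, and the peaks counted for it in WT replicate 2 and in TPdh-/- replicates 2 and 3 lie past the end of the gene, closest to the start of Baz2a. Atp5h, Atp5k and the second, longer model of Atp5o had none in any library.

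Fold enrichment was compared between the groups at the 2390 coding genes with a promoter peak in all 5 libraries, by limma on log2 fold enrichment centred on the median of these genes in each library. The comparison covers 12 members and cannot include those whose peak was not called in some list. One of them, Ndufa10, had its WT replicate 1 value from another region than its other values, so its difference is not of the same region. No member passed an adjusted p of 0.05, and none of the 2390 genes did (0%), while 188 genes and 1 member had an unadjusted p under 0.05. That member was Ndufa7, at −0.30 ± 0.10 (SE) on the log2 scale for TPdh-/- minus WT, with an adjusted p of 0.47. Atp5c1 differed by −0.19 ± 0.10 (adjusted p = 0.67 by limma) and Sdhc by −0.11 ± 0.10 (adjusted p = 0.84 by limma). On the other side, Uqcrfs1 differed by 0.11 ± 0.10, Cox17 by 0.09 ± 0.11 and Cox20 by 0.08 ± 0.10, with adjusted p of 0.84, 0.88 and 0.87 by limma. The median over the 12 members was −0.03, beside 0.01 over all genes, and 8 of the 12 were below 0, beside 1129 of the 2390 genes. Without TPdh-/- replicate 3, as also with the replicate block, 6 of 12 were below 0. After centring, both WT values lay above all 3 TPdh-/- values at 2 members (Ndufa7 and Atp5c1), beside 11% of the genes tested, and below them at 1 (Cox20), beside 12.8%. The 95% interval of the difference ran from −0.52 to −0.09 at Ndufa7 and from −0.12 to 0.28 at Cox20, before adjustment for the number of genes.

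**Figure D5:**
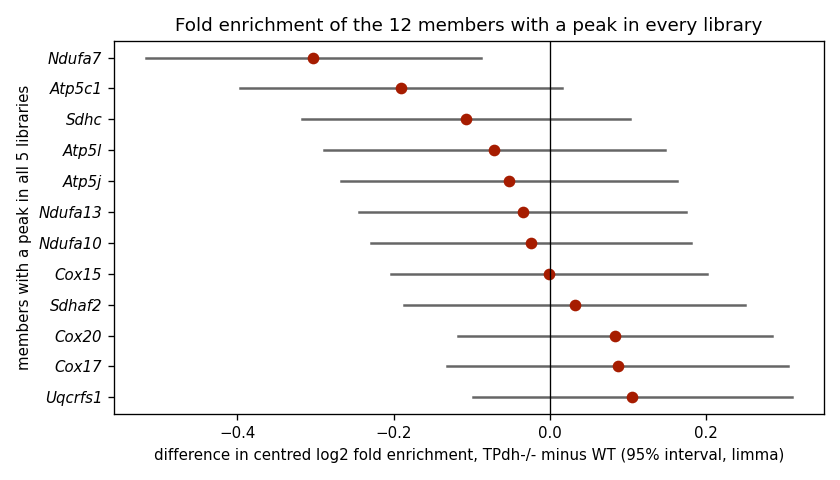
Difference in centred log2 fold enrichment between TPdh-/- and WT libraries (horizontal axis, points with 95% intervals from limma, unadjusted) for the 12 members with a promoter peak in all 5 libraries. Values run from −0.30 at Ndufa7 to 0.11 at Uqcrfs1, and no adjusted p is below 0.47. For Ndufa10 the peak of WT replicate 1 lies in another region than those of the other libraries.

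The symbols do not catch all genes of the respiratory chain, and a list of 47 others was examined. It holds cytochrome c, the ubiquinone pathway and further assembly factors, and also Cyc1, Usmg5 and Atpif1. These 47 genes had a promoter peak at 42 and 28 in WT, and at 13, 12 and 29 in TPdh-/- libraries. These are 89.4% and 59.6%, and 27.7%, 25.5% and 61.7%. Of these, 7 had a peak in all 5 libraries (14.9%, beside 10.9% of coding genes), Cycs (cytochrome c) among them, and 3 had one in both WT and in no TPdh-/- library (6.38%, beside 2.2%). Of genes with a promoter peak in at least 1 library, these are 16.7% and 7.14%, beside 25.2% and 5.10% of coding genes. The 3 were Acad9, an assembly factor of complex I, Atpif1, the inhibitor of ATP synthase, and Uqcc3, an assembly factor of complex III. The 78 genes of mitochondrial ribosomal proteins, whose products translate the subunits encoded in mitochondrial DNA, had a promoter peak at 82.1% and 35.9% in WT, and at 26.9%, 30.8% and 41.0% in TPdh-/- libraries. In all 5 libraries a peak was found at 16 of these 78 (20.5%) and at 12 of the 107 members (11.2%). Whether the lists differ was not tested.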

How the data were processed

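Acetylated histones of T_M cells were profiled by ChIPseq and peak lists of 2 WT and 3 TPdh-/- libraries were analysed here, while a legend of the study states 4 per condition. The authors used BWA-mem (0.7.17) for alignment to GRCm38/mm10, filtered for unique reads outside blacklisted regions with Samtools (1.15.1), and called broad peaks in each library with MACS2 (2.2.6), versions per the submitters' processing notes. No input control is named in the sources used here. The deposited lists give each peak's fold enrichment, a linear ratio, and its −log10 p and −log10 q. Columns give no read numbers, so no counting interval was possible. A longer list can come from more signal or from deeper sequencing, and these cannot be told apart.

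From there, start sites were taken from GENCODE (release 21 for mouse), and a peak was assigned to a gene where it overlapped a promoter by at least 1 bp. Of several peaks, the one with the highest −log10 q was used. Counts of members were checked with bedtools (2.31.1) and the overlap code on simulated data. Python 3.11.15, numpy 2.4.6, R 4.3.3 and limma 3.58.1 were used. Adjusted p are two-sided, by Benjamini-Hochberg over all genes fitted. limma was tested on simulated data. Peak ends lay within the chromosome lengths of GRCm38. Among the symbols without a RefSeq window were Ndufa2, Ndufb9, Ndufaf6, Ndufs1, Sdhc, Uqcrb, Uqcrc2, Uqcrq, Cox4i1, Cox6c, Cox17, Cox18, Cox4i2, Cox6a2, Cox8c, Ndufa4l2, Atp5mpl and Atp5a1.

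Members named in full are the 2 highest and the lowest of each complex by mean percentile among those with a peak in all 5 libraries, those with a peak in both libraries of WT and none of TPdh-/- cells, the 3 highest and 3 lowest differences by limma, and the Sdh subunits. Core and catalytic subunits, counterparts of isoforms and the genes with a peak in WT replicate 1 alone in complex III were named after their values were seen. Results that need certain items are not reported here. The members and lists were chosen with earlier results of these data known. Whether replicates were separate mice is not stated, so p-values measure only the spread between these libraries, which may be technical. Alternatives were promoters within 1000 bp, a minimum −log10 q (2 or 5), equal list lengths, peak midpoints, the 5′-most start site, the peak with the highest fold, no centring, omission of each library in turn, and a replicate block.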

Additional observations from a re-analysis of the deposited data

How the results depend on the processing

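Of 73 values under alternatives, 65 stayed within a set limit. For shares (21.1 points) and percentiles (6.02 points) it was the pooled SD between libraries. It was the median SE of limma (0.10) for log2 differences, and 1.5 times the reported count for counts. With limits this wide, a share difference of 9.97 points in place of 30.4 is among the 65. So are percentile differences of −1.99 and −2.46, and the counts of members called by limma, which were 0 throughout. Requiring a −log10 q of 5 or more, 2 members had a promoter peak in all 5 libraries in place of 12, and for a minimum of 2 the median percentile differed by 9.75 percentile points between WT and TPdh-/- cells in place of 2.88. Lists of equal length gave −1.99 points for that percentile. Leaving out each library gave 12 to 21 members with a peak in all remaining libraries, with 21 when TPdh-/- replicate 1 and 19 when TPdh-/- replicate 2 was omitted. It gave 3 to 31 members with a peak in the WT and in no TPdh-/- libraries left, with 31 when WT replicate 2 and 17 when TPdh-/- replicate 3 was omitted. The percentile difference ranged from −3.84 without WT replicate 1 to 9.60 without WT replicate 2, and the difference in share from 10.3 to 50.5 percentage points without the same libraries. No member was called by limma under any alternative run.

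Replicate numbers are not stated to pair samples. A fit with a replicate block had to omit TPdh-/- replicate 3. In it the median log2 difference over members was 0.0046, and limma called 4 genes and 0 members. The share, which takes no block, differed by 39.7 points over the libraries left. Both the share and the median log2 difference equal those without TPdh-/- replicate 3, and the 73 values count them under each name. With 2 shared numbers, pairing could not be checked further. List length and depth, which are not separable here, limit what the absence of a peak can show.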
